A study of Mus musculus with 6 samples.

Results

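Interferon-stimulated genes are switched on in almost any cell that senses an interferon, and 8 of them, *Ifit1*, *Ifit3*, *Isg15*, *Irf7*, *Bst2*, *Rsad2*, *Usp18* and *Oasl2*, were followed here in the soleus, a calf muscle made up largely of slow and oxidative fibers. They were taken by symbol from the 16180 genes of the deposited normalized table and joined by Ensembl identifier to the raw table of 51912 genes, and all 8 were found in both. The study compared 3 heterozygous Mustn1 KO-first mice (HET) with 3 wild-type littermates (WT), at 8 weeks of age and on the C57BL/6N background, with 1 poly-A library of single 50-base reads per mouse. The labels give no treatment. The KO-first allele traps the *Mustn1* transcript in a lacZ and neomycin resistance cassette in every tissue, and each HET mouse retained 1 normal allele. As a model it is limited by a trap that, by the description of the study, can let the normal transcript through during inflammation.

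Libraries held between 26790075 and 50368796 reads on genes, and 14696 genes were tested. The labels give all mice as male, yet every library held between 3858 and 9154 reads of *Xist* and between 0 and 12 reads in total of *Ddx3y*, *Kdm5d*, *Uty* and *Eif2s3y*. *Mustn1* itself had 471, 452 and 574 reads in HET mice 1, 2 and 3 and 691, 817 and 1504 in the WT mice, and was lower in HET by the edgeR test, with a log2 fold change of -0.96 (SE 0.15, adjusted p = 0.0452). That call was lost without robust dispersion and without HET mouse 1, HET mouse 3, WT mouse 1 or WT mouse 2, where 0 genes were called lower. The slow myosin gene *Myh7* had between 13642 and 14766 CPM (counts per 1e6 reads on genes) in every mouse, and markers of slow and oxidative fibers were abundant throughout. Nothing in the sources used here says whether littermates share a replicate number. The p-values set the difference between genotypes against the scatter between mice of the same genotype, among these 6 mice only.

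Type I interferons signal through the receptor Ifnar1 and Ifnar2 and the kinases Jak1 and Tyk2 to a transcription factor complex that includes Stat2 and Irf9. The complex binds a short promoter element, the interferon-stimulated response element (ISRE), and the genes it turns on limit viruses at successive steps, from sensing of foreign RNA to release of particles. Interferon gamma uses a separate receptor and acts through another promoter element, the gamma-activated site (GAS). In muscle, these genes are known for their strong expression in some inflammatory myopathies.

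The promoters of the 8 genes were searched for both elements in the reference sequence, from 250 bases before to 50 bases after the RefSeq transcription start in GRCm38.p6, for the 7 genes that had an entry (all but *Usp18*). The ISRE was written as GAAANNGAAA, which reads TTTCNNTTTC on the other strand, and the GAS as TTCNNNGAA, which reads the same on both strands. The ISRE was present in 5 of the 7 promoters (71.4%), against 1131 of all 32851 promoters of that length (3.44%). The matching stretches are shown with 20 bases on each side, 5′ to 3′ on the strand of the gene and with every ISRE match in capitals, because they are what these genes share by sequence and not by level.

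*Ifit1*, chr19:34640765-34640833, plus strand, matches between 104 and 76 bases before the start: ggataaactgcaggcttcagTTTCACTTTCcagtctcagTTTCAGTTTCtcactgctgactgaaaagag
*Ifit3*, chr19:34583353-34583436, plus strand, matches between 156 and 113 bases before the start: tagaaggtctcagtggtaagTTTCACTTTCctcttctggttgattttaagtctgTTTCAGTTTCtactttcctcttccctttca
*Isg15*, chr4:156200855-156200916, minus strand, overlapping matches between 78 and 57 bases before the start: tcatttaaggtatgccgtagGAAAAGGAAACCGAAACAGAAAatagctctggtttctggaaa
*Bst2*, chr8:71537567-71537622, minus strand, overlapping matches between 130 and 115 bases before the start: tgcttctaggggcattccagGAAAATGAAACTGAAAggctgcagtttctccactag
*Rsad2*, chr12:26456543-26456592, minus strand, match between 120 and 111 bases before the start: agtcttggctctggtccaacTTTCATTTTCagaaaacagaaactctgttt

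*Ifit1* and *Ifit3* each carried 2 separate matches, *Isg15* 3 overlapping ones, *Bst2* 2 overlapping ones and *Rsad2* 1. The windows of *Irf7* and *Oasl2* held no match to these letters, which says nothing of elements spelled otherwise or lying elsewhere. A GAS was found in 1 of the 7 promoters, that of *Bst2*, where it overlaps the ISRE stretch, against 8.3% of all promoters. These matches are descriptions of the reference sequence, and no binding was measured in these mice.

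All 8 genes were detected in every mouse and passed the filter on low counts, at modest levels. Per kilobase of exon, *Bst2* had the highest level, with 11.1 ± 3.50 CPM per kb (SD, n = 6 mice), above 80.1% of the tested genes. *Isg15* followed with 3.50 ± 1.32 CPM per kb, *Rsad2* with 2.72 ± 0.677 and *Irf7* with 2.53 ± 1.09, all near the median of 2.73 CPM per kb over all tested genes. *Ifit3* (1.91 ± 0.477), *Ifit1* (1.79 ± 0.958), *Oasl2* (0.986 ± 0.430) and *Usp18* (0.762 ± 0.195), in CPM per kb, lay lower, the last of these above 25.6% of the tested genes. *Bst2* exceeded *Isg15* in 6 of 6 mice, *Irf7* exceeded *Ifit3* in 6 and *Ifit1* exceeded *Oasl2* in 6. The place of *Ifit3* is uncertain, since 51.2% of its 50-base exon words also occur in *Ifit3b* while its full exon length was used. *Isg15*, *Rsad2* and *Irf7*, then *Ifit3* and *Ifit1*, and last *Oasl2* and *Usp18* changed places with their neighbor in at least 1 mouse. Differences in level between members were not tested.

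In the comparison of HET with WT, none of the 8 genes passed the threshold of 0.05 on the adjusted p in edgeR's quasi-likelihood test, DESeq2's Wald test or limma-voom, where edgeR called 0.143% of all tested genes higher and 0.0068% lower in HET. The fitted log2 fold changes lay between 0.21 for *Rsad2* and 0.64 for *Oasl2*, which are folds between 1.16 and 1.56, with a median of 0.51. All 8 were above 0, where 45.6% of all tested genes were above and 54.4% below it, with a median of -0.02. *Usp18* was the only one of the 8 with an unadjusted p under 0.05, against 5.76% of all genes on that side, and the only one in which the genotypes did not overlap. Over all genes the HET mice lay wholly above the WT mice in 7.55% and wholly below them in 6.02%. In a whole muscle, more cells that express a gene and more RNA per cell cannot be told apart. The levels below are CPM with trimmed-mean (TMM) scaling, given for mice 1, 2 and 3 in turn.

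**Figure D1:**
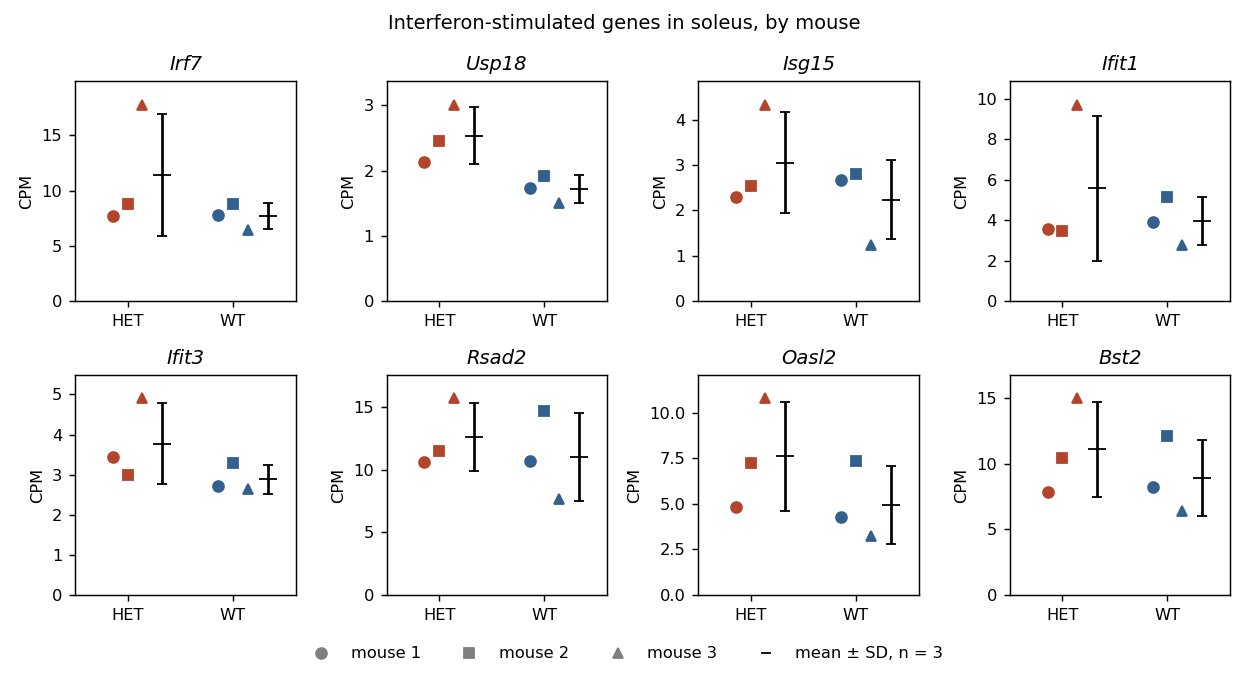
Each panel plots the CPM of 1 gene in the 3 HET mice (red) and the 3 WT mice (blue), with symbols for mice 1, 2 and 3 and a bar for the mean ± SD of each genotype. HET mouse 3 is the highest point and WT mouse 3 the lowest in all 8 panels, and only *Usp18* shows no overlap between genotypes.

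The first genes by role regulate the response itself. *Irf7* (ENSMUSG00000025498, chr7:141262706-141266481, minus strand) encodes the transcription factor that amplifies the production of type I interferons. It had 7.72, 8.79 and 17.8 CPM in the HET mice and 7.83, 8.83 and 6.44 CPM in the WT mice. HET mice 1 and 2 lay within the range of the WT mice, and HET mouse 3 stood at 2.15 times the mean of the other HET mice. The genotype means were 11.4 ± 5.52 and 7.70 ± 1.20 CPM (SD, n = 3), and the log2 fold change was 0.58 (SE 0.31, edgeR adjusted p = 0.771). *Irf7* was also the only one of the 8 whose call changed with the processing: with no filter on low counts its log2 fold change of 0.59 had an SE of 0.17 and an adjusted p of 0.0351, in a test that called 1.33% of 29081 genes higher and 0.0619% lower.

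*Usp18* (ENSMUSG00000030107, chr6:121245906-121270917, plus strand) encodes the protease that removes Isg15 from other proteins and restrains signaling at the type I receptor. Its levels were 2.14, 2.46 and 3.01 CPM in HET and 1.74, 1.92 and 1.50 CPM in WT. The genotypes were separate but close, since the lowest HET mouse was only slightly above the highest WT mouse. The log2 fold change of 0.57 (SE 0.22, 95% interval from 0.08 to 1.07) had a p of 0.0280 before adjustment and 0.537 after it in edgeR. *Usp18* rested on between 52 and 132 reads, and counting alone gives a spread of 13.9% at the lower of these.

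*Isg15* (ENSMUSG00000035692, chr4:156199424-156200818, minus strand) encodes the ubiquitin-like protein that is conjugated to target proteins after interferon exposure. It had 2.30, 2.53 and 4.33 CPM in HET and 2.68, 2.80 and 1.24 CPM in WT. WT mice 1 and 2 were above HET mice 1 and 2, so that the difference in means, 3.05 ± 1.11 against 2.24 ± 0.870 CPM, was set by the third mouse of each genotype. Its log2 fold change was 0.49 (SE 0.35, edgeR adjusted p = 0.855).

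The next genes act on viral RNA and its copying. *Ifit1* (ENSMUSG00000034459, chr19:34640871-34650009, plus strand) encodes a protein that binds RNA lacking the cap methylation of the host. It had 3.58, 3.47 and 9.71 CPM in HET and 3.91, 5.14 and 2.78 CPM in WT. This was the widest excess of HET mouse 3 among the 8 genes, 2.76 times the mean of HET mice 1 and 2, which were both below WT mice 1 and 2. The log2 fold change of 0.53 had an SE of 0.44 (edgeR adjusted p = 0.878), and without HET mouse 3 it was -0.14 (SE 0.27).

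*Ifit3* (ENSMUSG00000074896, chr19:34583531-34588731, plus strand), a relative of *Ifit1* on the same stretch of chromosome 19, had 3.45, 2.98 and 4.90 CPM in HET and 2.71, 3.30 and 2.63 CPM in WT. HET mouse 2 was below WT mouse 2, and the genotypes overlapped. Its log2 fold change was 0.41 (SE 0.22, edgeR adjusted p = 0.769). Of its 50-base exon words, 51.2% also occur in *Ifit3b*, so that reads of this pair can be split or lost in counting and its level is uncertain. The same share was 7.13% for *Ifit1* (with *Ifit1bl1* and *Ifit1bl2*) and at most 3.96% for the other members, and no member shared exon bases with another gene on its own strand.

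*Rsad2* (ENSMUSG00000020641, chr12:26442746-26456452, minus strand) encodes viperin, an enzyme that makes a chain-terminating nucleotide. It had 10.6, 11.5 and 15.7 CPM in HET and 10.7, 14.6 and 7.66 CPM in WT. WT mouse 2 was above HET mice 1 and 2, and the log2 fold change, the smallest of the 8, was 0.21 (SE 0.24, edgeR adjusted p = 0.916). *Oasl2* (ENSMUSG00000029561, chr5:114896936-114912234, plus strand) belongs to the oligoadenylate synthetase family, which senses double-stranded RNA. It had 4.83, 7.23 and 10.8 CPM in HET and 4.28, 7.34 and 3.24 CPM in WT. Again WT mouse 2 was above HET mice 1 and 2, and the log2 fold change, the largest of the 8, was 0.64 with an interval from -0.21 to 1.50 (SE 0.37, edgeR adjusted p = 0.804).

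*Bst2* (ENSMUSG00000046718, chr8:71534255-71537456, minus strand) encodes tetherin, which holds newly formed enveloped viruses at the cell surface. Its levels were 7.88, 10.4 and 15.0 CPM in HET and 8.23, 12.1 and 6.40 CPM in WT. HET mouse 1 was below WT mice 1 and 2, and the log2 fold change of 0.33 had an SE of 0.28 (edgeR adjusted p = 0.882).

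**Figure D2:**
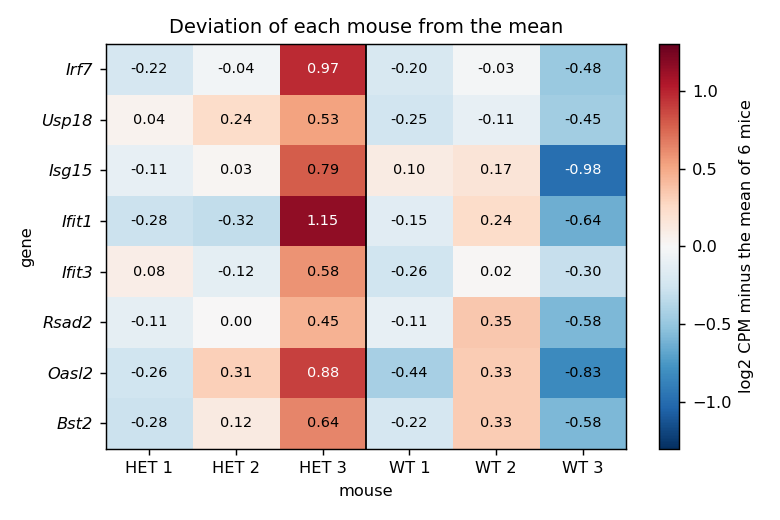
The heat map gives, for each gene (rows) and mouse (columns), the log2 CPM minus the mean of the 6 mice, with red above and blue below that mean. The column of HET mouse 3 is the reddest in every row, with values between 0.45 and 1.15, and that of WT mouse 3 is the bluest.

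The 8 genes shared the highest and the lowest mouse, and differed in the order of the others. HET mouse 3 was highest in 8 of 8 genes and WT mouse 3 lowest in 8 of 8. Over all tested genes, HET mouse 3 was highest in 17.4% and WT mouse 3 lowest in 12.1%. Both held in 541 of 14696 tested genes, or 3.68%. The peak in HET mouse 3 was not particular to the 8 genes. It was found in 12 of 15 macrophage and 8 of 10 fibroblast markers, but in 0 of 10 endothelial and 0 of 10 slow and oxidative fiber markers. WT mouse 2 came directly after HET mouse 3 in 6 of the 8. The median deviation from the mean of the 6 mice, on the log2 CPM scale, was 0.71 for HET mouse 3, 0.20 for WT mouse 2, 0.02 for HET mouse 2, -0.17 for HET mouse 1, -0.21 for WT mouse 1 and -0.58 for WT mouse 3. The HET mice and the WT mice thus each spanned more on this scale than the median difference between genotypes. In the normalized values that the authors deposited, HET mouse 3 was again highest and WT mouse 3 lowest in 8 of 8, and 7 genes each kept the order of mice that they had in CPM.

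Over the 6 mice, the 28 pairs of members had Pearson correlations between 0.74 and 0.98 on log2 CPM, with a median of 0.87. The 6 points of each pair are the same libraries, so these correlations describe how the genes moved together and are given without a test. The scatter between mice of the same genotype, as edgeR's biological coefficient of variation, was 2.13 times the trend for genes of like abundance for *Ifit1*, above that ratio in 98.8% of the tested genes. *Oasl2* (1.91 times), *Irf7* (1.77), *Bst2* (1.64), *Rsad2* (1.45) and *Isg15* (1.44) were also above the trend, as were 29.9% of all tested genes, while *Ifit3* (0.992) and *Usp18* (0.836) were not.

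**Figure D3:**
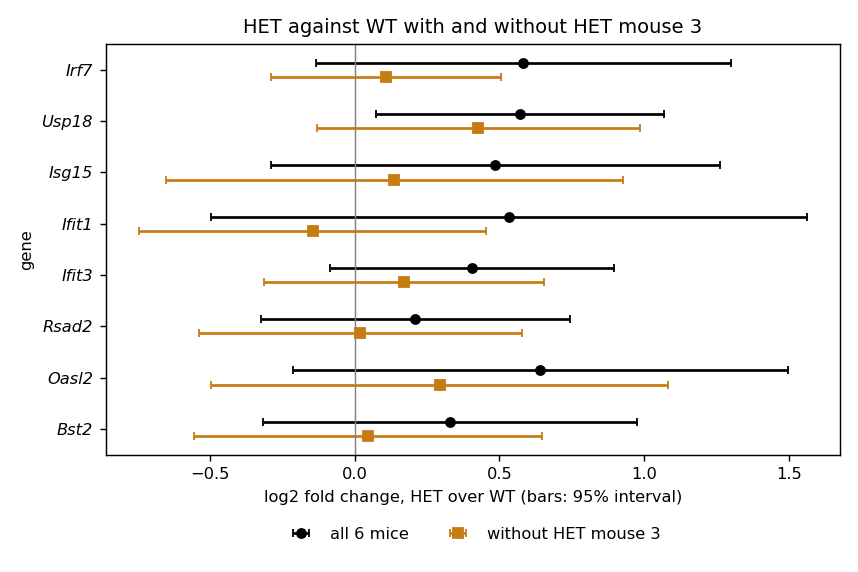
The plot gives the edgeR log2 fold change of HET over WT with its 95% interval for each gene, from all 6 mice (black circles) and from 5 mice without HET mouse 3 (orange squares). With all mice only the interval of *Usp18* lies wholly above 0, and without HET mouse 3 every interval includes 0.

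The size of the differences depended on single mice. HET mouse 3 was highest and WT mouse 3 lowest in all 8 genes, so a fall without either was set in advance. Without HET mouse 3 the median log2 fold change of the 8 genes was 0.12 instead of 0.51, 7 of 8 were above 0 and none had an unadjusted p under 0.05. *Usp18* was then at 0.43 and *Oasl2* at 0.29, while *Irf7* (0.11), *Bst2* (0.05) and *Rsad2* (0.02) were near 0. Without WT mouse 3 the median was 0.33 and *Rsad2* was at -0.0028. Leaving out HET mouse 1, HET mouse 2, WT mouse 1 or WT mouse 2 gave medians of 0.67, 0.61, 0.54 and 0.67 with 8 of 8 above 0 in each fit. Without WT mouse 2, *Oasl2* rose to 1.03, *Bst2* to 0.61 and *Rsad2* to 0.47. No fit with a mouse left out brought any of the 8 past the threshold.

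The other genes of the pathway were taken as 6 lists of 120 genes. None of the 92 that could be tested passed the threshold in edgeR, DESeq2 or limma-voom, 14 had an unadjusted p under 0.05 and a positive log2 fold change in edgeR (5.76% of all tested genes), 77 were above 0 (45.6% of all tested genes), and their median log2 fold change was 0.18 (-0.02 over all tested genes). The test without a filter on low counts, which called 1.33% of all its genes higher, did so for 5 of them, the cytokine signaling inhibitor *Socs3*, the DNA-sensing family member *Ifi204*, the galectin-binding *Lgals3bp*, the nucleic acid sensor *Zbp1* and *Ifi27l2a*.

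At the top of the pathway, 17 of 18 ligand genes had 0 reads in every library, and *Ifng* had 1 read, in WT mouse 2. A count of 0 allows up to 3 reads, or between 0.0608 and 0.112 CPM depending on the library, for reads that can be assigned to a single gene. Apart from the 1 read of *Ifng*, no read was counted on a ligand gene in either genotype. Reads that match several ligand genes can be lost in counting, and sequence shared between these genes was not examined. For ligand genes that share sequence, the counts therefore set no upper limit on the transcripts. Of 12 receptor and signal transducer genes 11 were tested and 8 were above 0, with a median log2 fold change of 0.10. *Stat2*, a subunit of the ISRE-binding complex, was the highest of them at 0.28 (SE 0.13, edgeR adjusted p = 0.694), and *Ifngr2*, a chain of the interferon gamma receptor, the lowest at -0.13 (SE 0.09). *Irf9*, also a subunit of that complex, was at 0.14 on the log2 scale.

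Among 16 sensors and adaptors, 15 were tested, 12 were above 0 and the median log2 fold change was 0.15. *Zbp1*, a sensor of left-handed nucleic acids, had 15, 14 and 46 reads in HET and 3, 7 and 8 in WT. The genotypes did not overlap, and the log2 fold change of 1.97 (SE 0.52) had an edgeR adjusted p of 0.234. *Tlr3*, the endosomal receptor for double-stranded RNA, was lowest at -0.17 (SE 0.16).

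The list of other type I interferon targets held 44 genes, with summed levels of 464, 450 and 556 CPM in HET and 421, 500 and 405 CPM in WT. The sums overlapped between genotypes and were highest in HET mouse 3. Of the 39 genes tested, 36 were above 0 with a median log2 fold change of 0.20, and HET mouse 3 was the highest mouse in 27. *Slfn8* was highest, at 1.36 (SE 0.37, edgeR adjusted p = 0.254), and the exonuclease gene *Isg20* lowest, at -0.21 (SE 0.32). Of the 21 targets of interferon gamma 19 were tested, 17 were above 0, the median was 0.21 and HET mouse 3 was highest in 11. *Ciita*, the master regulator of MHC class II genes, was highest at 1.36 (SE 0.41, edgeR adjusted p = 0.315), and the GTPase gene *Irgm1* lowest at -0.06 (SE 0.14).

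Of 9 negative regulators 8 were tested, with 4 above and 4 below 0, a median of 0.01 and HET mouse 3 highest in 1. In edgeR, 3 of the 8 had an unadjusted p under 0.05, all higher in HET (5.76% of all tested genes). The genotypes did not overlap in 3, again higher in HET (7.55% of all tested genes). *Socs1*, an inhibitor of Jak kinases that interferon itself induces, had 19, 24 and 39 reads in HET and 11, 6 and 13 in WT, without overlap once scaled to depth. Its log2 fold change was 1.43 (SE 0.40, edgeR adjusted p = 0.268), and the phosphatase gene *Ptpn2* was lowest at -0.16 (SE 0.12). In promoters, the ISRE occurred in 14 of 34 other type I targets (41.2%) and in 10 of 13 interferon gamma targets (76.9%) with an entry, against 3.99% of all genes. The GAS occurred in 8 of those 13 gamma targets (61.5%), against 9.55% of all genes.

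**Figure D4:**
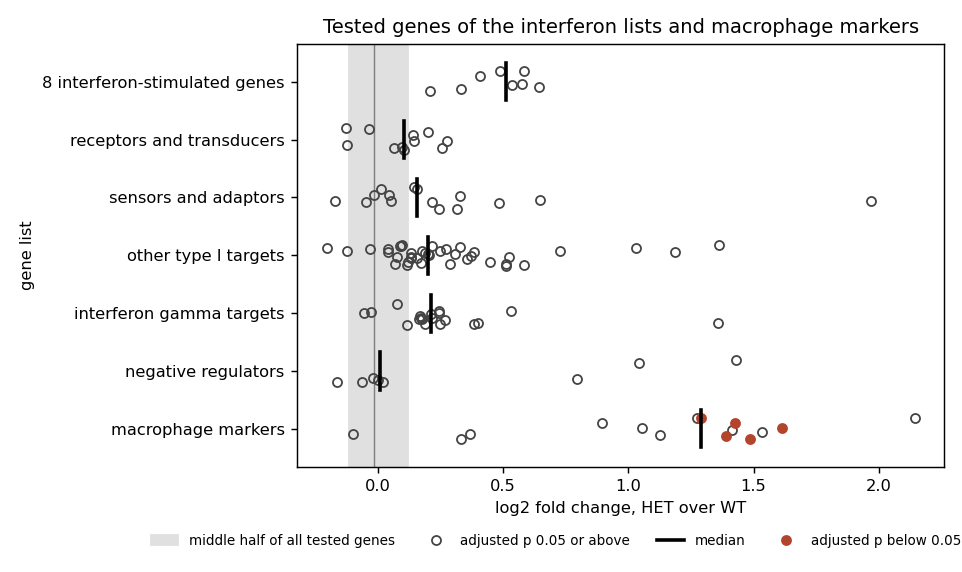
Each circle is the edgeR log2 fold change of HET over WT for 1 tested gene, by list, with a black bar at the list's median. The grey band spans the quartiles of all tested genes, from -0.12 to 0.12. No interferon gene is filled, and 5 macrophage markers are filled for an adjusted p below 0.05.

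Markers of some other cell types moved with genotype or with single mice. Of 15 macrophage markers 14 were above 0, against 45.6% of all tested genes, with a median log2 fold change of 1.29. In edgeR 5 passed the threshold (*Adgre1*, *Csf1r*, *C1qa*, *C1qb* and *Lyz2*), against 0.143% of all tested genes called higher. None of these calls held without HET mouse 1, HET mouse 3, WT mouse 1 or WT mouse 2, fits in which 0 genes in all were called higher. Their summed level was between 95.4 and 135 CPM in HET and between 55.3 and 64.5 CPM in WT, and HET mouse 3 was highest. The genotypes were separate in this sum, whereas the summed level of the 8 interferon-stimulated genes, at 42.5, 49.4 and 81.1 CPM in HET and 42.0, 56.1 and 31.9 CPM in WT, overlapped. All 10 fibroblast markers were above 0 (median 0.60), 1 of them (*Pi16*) past the threshold and lost in the same fits, with sums between 2040 and 3128 CPM in HET and between 1020 and 1585 CPM in WT. These sums were mostly *Col1a1*, *Col1a2* and *Col3a1*, with means of 446, 579 and 455 CPM over the 6 mice. The HET mice lay wholly above the WT mice in 12 of the 15 macrophage markers and 6 of the 10 fibroblast markers (7.55% of all tested genes).

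Neutrophil markers stood apart in HET mouse 3. Their sum was 0.0267, 0.112 and 2.46 CPM in the HET mice and 0.100, 0.284 and 0.446 CPM in the WT mice. *S100a9* had 56 reads and *Retnlg* 15 in HET mouse 3, against at most 7 and 0 reads in any other mouse, while *Ly6g* had 0 reads in every mouse. WT mouse 3, the lowest for all 8 interferon-stimulated genes, was the second highest for these markers.

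Markers of plasmacytoid dendritic, T and NK cells were at or near the limit of detection. *Siglech*, which marks plasmacytoid dendritic cells, had between 4 and 10 reads per mouse, and the sum of the 5 markers of that cell was between 0.296 and 0.374 CPM in HET and between 0.284 and 0.468 CPM in WT. The 8 markers of T and NK cells summed to between 0.596 and 0.881 CPM in HET and between 0.405 and 0.567 CPM in WT, a gap of less than 1 read. The B cell sums, between 4.57 and 5.70 CPM in HET and between 3.16 and 3.85 CPM in WT, were mostly *Ighm*. The log2 fold change of *Ighm* was 0.71 (SE 0.19, edgeR adjusted p = 0.232), and that of *Cd79b* was -0.31 (SE 0.47). Endothelial sums overlapped, between 806 and 967 CPM in HET and between 823 and 1060 CPM in WT, as did those of slow and oxidative fibers, between 55029 and 58341 CPM and between 55260 and 59373 CPM. The part of any of these cells in the levels of the 8 genes was not tested.

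**Figure D5:**
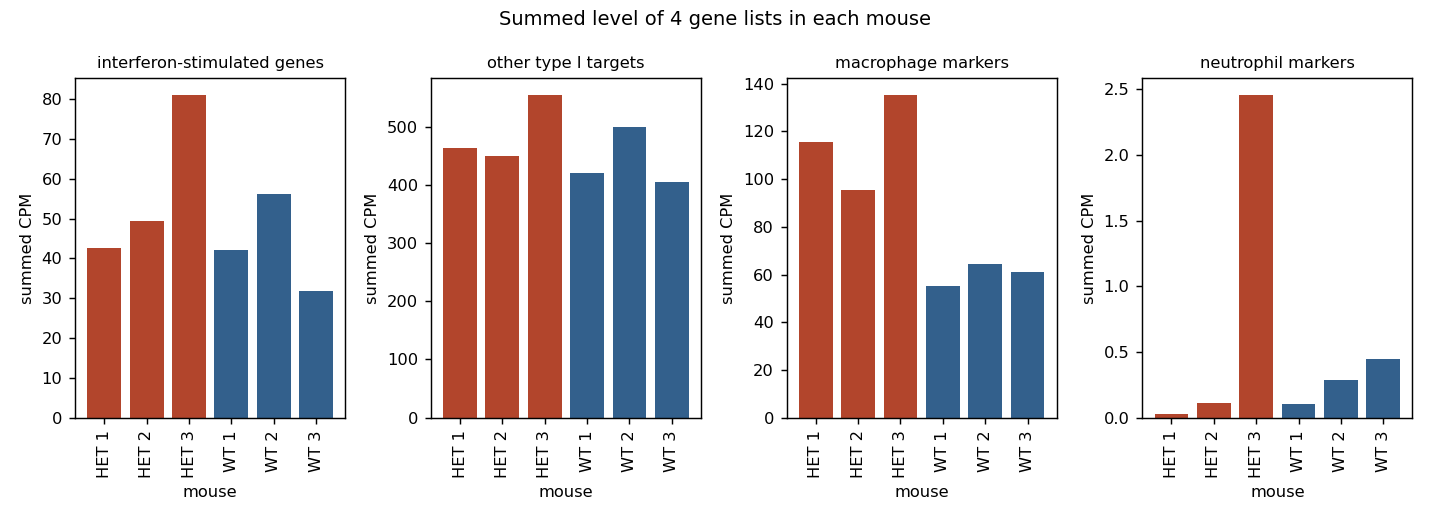
Bars give the summed CPM of 4 gene lists in each mouse, with HET in red and WT in blue. The 8 interferon-stimulated genes overlap between genotypes and peak in HET mouse 3 at 81.1 CPM, the macrophage markers are higher in all 3 HET mice, and the neutrophil markers peak in HET mouse 3 at 2.46 CPM.

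Outside these lists, the genes whose pattern over the 6 mice was most like the mean of the 8 were *Msn* (Pearson r of 0.990), *Cd44* (0.983), *Trpc4* (0.980), *Rasgrp1* (0.980) and *Itgal* (0.979), on log2 CPM. *Msn* encodes moesin, a linker of membrane and actin, *Cd44* a receptor for hyaluronan, and *Itgal* a leukocyte integrin chain. They were selected among all tested genes for these values, over 6 points, and none passed the threshold, with log2 fold changes between 0.15 and 0.75 and edgeR adjusted p-values between 0.769 and 0.863.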

How the data were processed

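Soleus RNA of 3 HET and 3 WT mice was sequenced as poly-A enriched, stranded libraries. The authors aligned the reads with STAR 2.7.3a to GRCm38.p6 and deposited raw counts of reads per gene from featureCounts 2.0.3, counted in reverse-stranded mode, and a normalized signal, the same counts after division by size factors from DESeq2 that ran from 0.773 to 1.42. The last deposited table holds the authors' own comparison (fold changes, p-values) and was not used. There were 0 value columns without a sample.

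Raw counts were analysed in R 4.3.3 with edgeR 4.0.16 (filterByExpr with a minimum count of 10, TMM factors, robust quasi-likelihood test, genotype as the only term). Its two-sided p-values were adjusted by Benjamini-Hochberg over 14696 genes. The SE is the log2 fold change over the square root of F. The biological coefficient of variation was 0.143. Levels are CPM, and log2 CPM used a prior count of 2. DESeq2 1.42.0 and limma-voom (limma 3.58.1) were among 15 alternatives, with other scaling factors, other filters, dispersion without robust fitting, a block on the replicate number, and each mouse left out. Summaries used Python 3.11.15, pandas 2.3.3 and matplotlib 3.10.9. Symbols came from the reference annotation of GRCm38 (51633 of 51912 identifiers), and promoters from RefSeq.

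The 8 members and all lists were chosen with earlier results of these data known. Named singly are the members, the tested genes at both ends of each pathway list, pathway genes past a threshold, and the 5 genes outside the lists most correlated with the members. *Irf9*, *Mustn1*, *Myh7*, *Xist*, the Y genes and the markers named singly were added as background or checks, with their values known. Chi-square per gene between libraries of the same genotype was between 16.5 and 46.8, so no library was a copy of another. Counting errors cover counting only, since the reads carry no molecular identifiers. The procedure was tested on simulated counts, with the same biological coefficient of variation of 0.143 for every gene. The simulated fold changes were larger than those of the 8 genes, so that test does not show whether differences of their size would be found.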

Additional observations from a re-analysis of the deposited data

How the results depend on the processing

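For the 8 interferon-stimulated genes, the number past the threshold was 0 in 14 of 15 alternatives and 1 (*Irf7*) without a filter on low counts, a test over 29081 genes in which the other pathway genes past the threshold went from 0 to 5, with edgeR adjusted p-values between 0.00265 and 0.0325 (*Socs3*, *Ifi204*, *Lgals3bp*, *Zbp1* and *Ifi27l2a*). The cause was not tested. Their median log2 fold change was between 0.45 and 0.54 in the 9 alternatives that kept all mice, and between 0.12 (without HET mouse 3) and 0.67 with a mouse left out. With a mouse left out, the number of the 8 past the threshold stayed at 0. The log2 fold change of *Ifit1* ran from -0.14 (without HET mouse 3) to 0.79 and that of *Rsad2* from -0.0028 (without WT mouse 3) to 0.47. The median over all genes moved between -0.04 and 0.01.

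Over all genes, 21 were higher and 1 lower in HET. These counts were 386 and 18 without a filter, 200 and 10 with DESeq2, 6 and 0 without robust dispersion, and 12 higher with limma-voom, and with a mouse left out they were between 0 and 77 higher and between 0 and 6 lower. With the replicate number as a block they were 114 and 2, none of the 8 genes passed and their median was 0.45. The numbers were not taken as a pairing, since no source says that same-numbered mice shared a litter. The deviations of same-numbered mice correlated at 0.20, -0.0058 and -0.035, the first being the highest of all pairs. HET mice 2 and 3 correlated best with WT mice 3 and 2. Deviations were centred within each genotype, which ties these correlations to one another, so they cannot decide on a pairing. Depth limits *Usp18* most, with 52 reads in its lowest library.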
